A study of Homo sapiens with 6 samples.

Results

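ID1, ID2, ID3, HES1, HES4, HES6 and HEY1 are 7 genes for transcriptional repressors of the helix-loop-helix superfamily, named as a list and found among the counted transcripts by their GENCODE gene symbols. All 7 were found, each with 1 counted transcript, among 37111 genes that could be matched to a symbol and were longer than 1000 bp. No measured value entered the rule, but the list was drawn up with earlier results of these data known.

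The data came from K562, a human cell line established from a chronic myelogenous leukemia, which received no treatment. Nascent transcription was measured with PRO-seq, which maps engaged RNA polymerases, in 2 libraries, and steady-state RNA with rRNA-depleted total RNA-seq in 4 libraries. The methods describe cells from a single shared flask, so the spread between libraries is technical and the p-values below measure that spread only. The question addressed is how stable each RNA is, read as the ratio of what has accumulated to what is being transcribed. According to the paper, this ratio assumes a steady state, and PRO-seq reflects the rate of elongation as well as that of transcription. Neither was tested or corrected for here. The paper also found half-lives from earlier published libraries less variable, and closer to published estimates, than those from these libraries.

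Helix-loop-helix proteins dimerize through their helices and bind E-boxes in DNA through a basic region next to them. ID proteins have no basic region, so that an E protein paired with an ID protein cannot bind DNA, and their genes are classical targets of BMP signalling through SMAD proteins. HES and HEY proteins do bind DNA, recruit Groucho (TLE) corepressors, and are the best known targets of Notch, whose intracellular part acts through the DNA-binding protein RBPJ. HES1 represses its own promoter and is a textbook case of an oscillating gene with a short-lived mRNA and protein, whereas HES6 binds HES1 and opposes its repression.

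Sequences around the start sites were searched for sites of the factors named above and for the TATAAA box, and some matches are shown. The RefSeq promoter table (GRCh38.p14, 250 bases before to 50 after the start site) held 6 of the 7 genes. The RBPJ core, searched as GTGGGAA on both strands, was present in 6.25% of 35116 promoters and in those of HES1, 85 bp before the start site, and HES4, 77 bp before it. The capitals mark the core.
HES1 (chr3:194136052-194136080, + strand): tgaaagttactGTGGGAAagaaagtttgg
HES4 (chr1:1000157-1000185, - strand): ctggggcgagtGTGGGAAagaatgcggag

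N-boxes, the sites preferred by HES proteins, were searched as CACNAG on both strands and were found in 38% of all promoters. HES1 held 4 of them and ID1 held 1, and the other 4 promoters held none. Of the HES1 matches, those at 132 and 58 bp before the start site were on the strand of the gene and also matched the related site CACGNG, which 30.5% of all promoters contained. The capitals mark the N-box.
HES1 (chr3:194136005-194136032, + strand): ggggcgcggtcCACGAGcggtgccgcgt
HES1 (chr3:194136079-194136106, + strand): gggaagtttcaCACGAGccgttcgcgtg
ID1 (chr20:31605138-31605165, + strand): ctgcgagcaggCACTAGacgagcaggag

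A TATAAA box, found in 11.5% of all promoters on either strand, lay 30 bp before the start site of HES6 and 31 bp before that of ID1, the most abundant RNAs of the list. The capitals mark the box.
HES6 (chr2:238240052-238240079, - strand): aaataagcggcTATAAAaggggcgggac
ID1 (chr20:31605247-31605274, + strand): cgtggcgtgttTATAAAagacaagctgt
E-boxes, searched as CANNTG, were present once in the promoters of ID2 and HES6, against 68.7% of all promoters, and GGCGCC, a site bound by SMAD proteins, was in none of the 6 against 19.2%. These matches describe letters in a window, and binding was not measured.

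Library totals on transcripts ranged from 5732780 to 9002746 counts in RNA-seq and were 6993816 and 7245632 in PRO-seq. Levels are given in TPM, that is counts per base of exon (RNA-seq) or per base of the transcription unit (TU) left after removal of 1000 bp (PRO-seq), scaled to the same sum in every library. All 13 K562 markers listed for the check were above 1 TPM in RNA-seq, including GATA1 and TFRC, whereas 3 of 10 markers of other cell types were (CD3D, EPCAM and COL1A2). In every library the summed level of the K562 markers was above that of the others, at 12190 to 13082 TPM against 228 to 234 TPM in RNA-seq, and at no less than 2031 TPM in PRO-seq. The globins HBG2, HBE1 and HBG1 (6287, 3104 and 1828 TPM) made up most of the K562 sum in RNA-seq. EPCAM (120 TPM) and CD3D (109 TPM) were above some K562 markers, such as TAL1 (79.7 TPM), and below others, such as GATA1 (155 TPM).

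The 7 genes were all transcribed in these cells, and all 7 passed the minimum levels required for a half-life, which were 10 TPM for PRO-seq and 1 TPM for RNA-seq. Since the list was drawn up with earlier results known, that all 7 passed is not a result about these families. PRO-seq levels ran over a 10.2-fold range, from HEY1 (24.9 TPM) to ID1 (255 TPM), and RNA-seq levels over a 17.7-fold range, from ID2 (10.1 TPM) to HES6 (179 TPM). These levels rest on the lengths of the counted transcripts. The order of the genes differed between the assays. HES1 and HES6 had overlapping nascent levels, at 124 TPM each, and RNA levels that differed by 6.55-fold.

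Relative half-life, the ratio of RNA-seq to PRO-seq level, was expressed on the log2 scale against the median mRNA and tested with edgeR's quasi-likelihood test, adjusted over all 10053 TUs past the thresholds. A call is an adjusted p under 0.05. HES1 and ID2 were below the median mRNA, at percentiles 16.5 and 17.4 of mRNAs tested, and HES6 was above it. ID3 was below it by an adjusted p of 0.0499, at the very edge of the threshold. ID1, HES4 and HEY1 were not called. Thus 3 of the 7 were called below, where 50.4% of all TUs tested were, and 1 was called above, where 40.0% were. The median of the list was -0.38, against -0.24 over all TUs tested, 0.02 over the 713 mRNAs tested that span under 5000 bp and -0.30 over the 118 that span under 2000 bp, as ID1, ID3, HES4 and HES6 do. The middle 50% ran from -1.60 to 1.56 for mRNAs under 5000 bp and from -2.26 to 1.34 under 2000 bp. HES1 (2585 bp), at -1.56, lay just inside the first range, and HES6, at 1.16, lay inside the second.

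Among the ID genes, ID1 had the highest level in both assays. The counted transcript of ID1 (chr20:30193086-30194318, + strand, all coordinates of transcripts in GENCODE annotation lifted to GRCh37) is a single exon of 1233 bases, an isoform that retains the intron of the reference (MANE Select) transcript. Its RNA-seq counts were 740, 782, 500 and 620 in replicates 1 to 4, or 154, 155, 155 and 168 TPM. Its PRO-seq counts were 15 and 16, or 249 and 261 TPM, which placed it above 96.5% of mRNAs in nascent level and above 88.0% in RNA level. RNA-seq libraries varied by a coefficient of variation of 4.14%, with replicate 4 above the other 3. Its log2 half-life was -0.05 (SE 0.25, adjusted p = 0.839 by edgeR), and 6 of the 8 pairings of 1 RNA-seq with 1 PRO-seq library gave a value under the median mRNA.

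The PRO-seq level of ID1 rested on 31 counts over the 233 bp that removing 1000 bp left (exact Poisson 95% interval 21.1 to 44 counts, counting error only). Dividing the same counts by the span less 500 bp gave a log2 half-life of 1.55 (adjusted p = 5.03e-08 by edgeR). The placing of ID1 relative to the median mRNA thus depended on that length. No reads were recounted, and the span less 500 bp does not match the counting described in the methods, which leaves out 1000 bp.

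ID2 had the lowest RNA level of the 7 genes by the lengths of the counted transcripts. That length is 2041 bases of exon for ID2, against 1299 in its MANE Select transcript, so the rank depends on the isoform. The counted transcript (chr2:8818975-8824583, + strand, 5 exons) starts 3211 bp upstream of the MANE Select start, so its PRO-seq window of 4609 bp takes in the main start site as well as the gene. The methods leave out the first 500 bp to avoid polymerase paused near the start, but for ID2 these lie at the upstream start. The share of the PRO-seq count from around the main start was not tested, and no alternative left that region out. RNA-seq counts were 77, 79, 56 and 68 (9.70, 9.43, 10.5 and 11.1 TPM), and PRO-seq counts were 62 and 45 (52.0 and 37 TPM). The nascent level was close to the middle of all mRNAs (percentile 46.9), and the RNA level was in the lower part (percentile 20.5).

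ID2 accumulated 2.83-fold less RNA for its nascent level than the median mRNA (log2 half-life -1.50, SE 0.19, adjusted p = 1.58e-08), and all 8 pairings of libraries were below the median, from -1.85 to -1.10. With the lengths of the MANE Select transcript (1898 bp for PRO-seq and 1299 bases of exon), an alternative chosen after the data were seen, the value was -2.13. The counts stayed those of the longer counted transcript, so that value is not a half-life of the MANE Select transcript. The PRO-seq libraries differed by more than those of ID1, with replicate 1 above replicate 2.

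ID3 (chr1:23884417-23885992, - strand, 3 exons) lay between its relatives in RNA level. RNA-seq counts were 231, 235, 155 and 184 (62.5, 60.3, 62.5 and 64.6 TPM), and PRO-seq counts were 17 and 24 (114 and 158 TPM) over a window of 576 bp. The nascent level exceeded that of 89.5% of mRNAs, and the RNA level that of 69.7%. The RNA-seq libraries were close to each other (coefficient of variation 2.85%), so that most of the spread came from the PRO-seq counts.

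For ID3 the log2 half-life was -0.49 (SE 0.23), and the 8 pairings ran from -0.75 to -0.21. The call below the median mRNA was lost in 11 of 16 tested alternatives: with DESeq2 the adjusted p was 0.0822, and without PRO-seq replicate 2 the value was -0.25 (edgeR adjusted p = 0.506). Set against ID2, ID3 had 3.07 times the nascent level and 6.18 times the RNA. ID1 had 5.73 times the nascent level of ID2 and 15.6 times the RNA. Both comparisons with ID2 use the lengths of the counted transcripts. Over library pairings the range of ID2 lay below those of ID3 and ID1, as did its 95% interval from the fit (-1.87 to -1.13). ID3 and ID1 did not overlap over pairings either, but these reuse the same 2 PRO-seq libraries and leave out counting error, and the intervals from the fit did overlap (-0.95 to -0.03 and -0.54 to 0.43), so ID3 and ID1 were not ordered.

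HES1, a direct Notch target, had a high nascent and a middling RNA level. The counted transcript (chr3:193853937-193856521, + strand, 4 exons) is the MANE Select one. RNA-seq counts were 194, 171, 95 and 124 (31.7, 26.5, 23.1 and 26.3 TPM), with replicate 1 the highest and replicate 3 the lowest. PRO-seq counts were 50 and 53 (122 and 127 TPM) over 1585 bp. HES1 thus ranked above 87.3% of mRNAs in nascent level and above 46.0% in RNA level.

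HES1 had 2.94-fold less RNA for its nascent level than the median mRNA (log2 half-life -1.56, SE 0.19, adjusted p = 6.41e-09), the lowest value of the 7 genes. All 8 pairings were below the median, from -1.82 to -1.31. This range overlapped that of ID2, so HES1 and ID2 could not be ordered, and both were apart from ID3.

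HES6, which lacks the repressor activity of HES1 on N-boxes, was at the other end. The counted transcript (chr2:239146908-239148679, - strand, 4 exons) is the MANE Select one. RNA-seq counts were 980, 1001, 623 and 718 (184, 178, 174 and 175 TPM), with a coefficient of variation of 2.52%, and PRO-seq counts were 24 and 26 (120 and 128 TPM) over 772 bp. Replicates of either assay differed little beside the distance to HES1 in RNA level.

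HES6 had 2.24-fold more RNA for its nascent level than the median mRNA (log2 half-life 1.16, SE 0.17, adjusted p = 3.06e-07) and stood at the 76.5th percentile of mRNAs. The pairings ran from 1.09 to 1.25, and no pairing of HES1 came near that range. The difference between HES6 and HES1 was 2.72 on the log2 scale. HES6 lies within the span of a long noncoding RNA gene on the opposite strand (ENSG00000225057), which had 0 counts in RNA-seq and 31 in PRO-seq. No source used here states whether the counting used strand, and the part of that antisense transcription in the HES6 count of 50 was not tested.

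HES4, a Notch target present in humans and lost from the mouse genome, was at modest levels. The counted transcript (chr1:934342-935552, - strand, 3 exons) had RNA-seq counts of 98, 98, 67 and 53 (24.2, 23.0, 24.7 and 17.0 TPM), with replicate 4 the lowest. PRO-seq counts were 1 and 3 (18.3 and 53.9 TPM) over a window of 211 bp. A total of 4 counts has an exact Poisson 95% interval of 1.09 to 10.2, so the nascent level of HES4 is barely measured.

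The log2 half-life of HES4 was -0.06 with an SE of 0.77 (adjusted p = 0.937), and the pairings ran from -1.03 to 1.05, 4 on each side of the median mRNA. A difference of the size seen in HES1 or HES6 could not have been told from the median at this depth, since the interval of the fit reached from -1.57 to 1.44. With the same counts divided by the span less 500 bp the value was 1.64 (adjusted p = 0.016 by edgeR).

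HEY1, which pairs with HES proteins and binds E-boxes, had the lowest nascent level. RNA-seq counts of the counted transcript on chromosome 8 (80676248 to 80680092, - strand, 5 exons) were 113, 110, 74 and 86 (12.7, 11.7, 12.3 and 12.5 TPM). PRO-seq counts were 16 and 21 (21.7 and 28.0 TPM) over 2845 bp. The percentiles were close in both assays, at 22.0 for nascent and 24.8 for RNA level.

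HEY1 was not called (log2 half-life -0.38, SE 0.25, adjusted p = 0.147), although all 8 pairings fell below the median mRNA, from -0.62 to -0.15. In order of half-life the 7 genes were HES1, ID2, ID3, HEY1, HES4, ID1 and HES6. Neighbours were apart, with no overlap between pairings or between intervals from the fit, only between ID2 and ID3 and between ID1 and HES6. The separation of ID1 from HES6 depended on the PRO-seq length. With the span less 500 bp, ID1 was at 1.55 (SE 0.21), HES4 at 1.64 (SE 0.63) and HES6 at 1.83 (SE 0.16).

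For ID1, HES4 and ID3 the length given to the gene was, of the alternatives run, the choice that moved the half-life most. For PRO-seq, 500 bp at the start and 500 bp at the end of each TU had been left out of the counting. Removing these 1000 bp leaves 211 bp of HES4, 233 bp of ID1 and 576 bp of ID3. The counts were checked against that, and they fall away as the span nears 1000 bp. TMSB10, singled out after its values were seen, spans 1016 bp and had 14960 RNA-seq and 0 PRO-seq counts. Of 9 mRNAs with at least 200 RNA-seq counts and a span over 1000 and up to 1200 bp, 4 had no PRO-seq count and the median was 2, against a median of 70.5 for spans over 2000 and up to 3000 bp.

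Even so, 24 of 84 TUs that span 1000 bp or less in this annotation carried PRO-seq counts, which an empty window cannot hold, so the spans the authors counted on differ for some TUs. Whether they differ for HES4, ID1 or ID3 was not tested. HES1, ID2 and HES6 kept their side of the median mRNA and an adjusted p under 0.05 under each of the tested alternatives, within -1.66 to -0.93 for HES1, -2.13 to -0.87 for ID2 and 1.12 to 1.83 for HES6, values without a test included.

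The 7 genes share a compact structure that was no part of their choice. All 7 are in the shortest 10% of mRNAs tested by span, with ID2 the longest at 5609 bp (percentile 9.69) against a median of 29515 bp. They have 1 to 5 exons in the counted transcript, where the median mRNA had 9. Their 3′ UTRs run from 97 bases in HES4 to 1175 bases in HEY1, under the median of 1240.5 bases.

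AUUUA, the core of AU-rich elements to which mRNA decay factors bind, was searched for in the 3′ UTRs as ATTTA on the sense strand of the reference transcripts. It was found 7 times in HEY1, 3 times in ID2 and once each in ID1, ID3 and HES4, and not in HES1 or HES6. Of 8142 mRNAs with an annotated 3′ UTR, 71.3% held at least 1 and 43.8% at least 3. Per kilobase of UTR the density was 10.3 in HES4, 5.96 in HEY1 and 3.87 in ID2, above 99.1%, 94.6% and 83.4% of those mRNAs, and that of HES4 comes from 1 match in 97 bases. Over those mRNAs the median log2 half-life was -0.10 for the 5802 with a match and 0.30 for the 2340 without. The 2 sets were not matched for length or GC content of the UTR, and whether the pentamer accounts for the difference was not tested. Of the 7 genes, HES1 and HES6 had no match and lay at opposite ends in half-life, at -1.56 and 1.16. The sites of ID2 are printed with the pentamer in capitals (GRCh37).
ID2 site 1 (chr2:8824007-8824031, + strand): gatattcgttATTTAtgaaaaagac
ID2 site 2 (chr2:8824246-8824270, + strand): ctgtgtatatATTTAtatataaata
ID2 site 3 (chr2:8824527-8824551, + strand): acaagttcaaATTTAtgtagactgt

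The GC content of the 3′ UTRs fell into separate ranges, with 31.8% in ID2, 33.5% in HES1 and 35.1% in HEY1 against 52.0% to 57.7% in ID3, ID1, HES6 and HES4. The median mRNA had 42.7%. The genes with the GC-poor UTRs had log2 half-lives of -1.50, -1.56 and -0.38, and the others -0.49 to 1.16. Over 7 genes this is a description.

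Each gene had mRNAs of other functions beside it in the plane of log2 PRO-seq and log2 RNA-seq level. The nearest to HES1 were DDX28 and DYRK1A (distances 0.055 and 0.064 on the log2 scale), and to HES6 AMD1 and ATP13A3 (0.040 and 0.057). STX7 and PHACTR4 were nearest to ID2 (0.015 and 0.032), EMC1 and SMC1A to ID3 (0.041 and 0.054), and PRPS1 and HNRNPR to ID1 (0.088 and 0.095). HES4 lay by ASB13 and TNKS2 (0.017 and 0.035), and HEY1 by LIN7B and ANKRD46 (0.0073 and 0.040).

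Of 10 further genes of these families, BHLHE40 alone passed the thresholds. BHLHE40, a repressor of the circadian clock and the hypoxia response, had RNA-seq counts of 513, 530, 404 and 419 and PRO-seq counts of 578 and 657. Its level was 43.5 TPM in RNA-seq and 484 TPM in PRO-seq, and its log2 half-life of -2.83 (SE 0.07, adjusted p = 3.22e-25 by edgeR) stood at percentile 4.64 of mRNAs. That is lower than the value of any of the 7 genes.

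The remaining 9 were at or near 0 in RNA-seq, and some of them had PRO-seq counts. ID4, HES3 and HES5 had no count in any library. HES7 had 0 RNA-seq and 5 PRO-seq counts, BHLHE41 0 and 1, HELT 1 and 0, HEY2 1 and 13, HES2 3 and 13, and HEYL 20 and 39. HEYL, the most counted of them, stood at 0.361 TPM in RNA-seq and 4.91 TPM in PRO-seq. A count of 0 limits a gene to 3 counts in the summed libraries, by counting error only.

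The helix-loop-helix partners that ID proteins take out of action were expressed, except for the tissue-specific ones. Of 9 partners matched, 5 passed the thresholds, 3 were called below the median mRNA and 0 above by edgeR, beside 50.4% and 40.0% of all TUs tested. No partner was above it at an unadjusted p under 0.05 or by DESeq2 either, and the alternatives gave at most 2. TAL1, LYL1 and TCF3 were the 3, at log2 half-lives of -0.87, -0.67 and -0.82, each with an RNA-seq level of at least 43.9 TPM. TCF12 and TCF4 were near the median, at 0.09 and -0.02, with adjusted p = 0.106 and 0.755. MYOD1 and NEUROG1, factors of muscle and nerve, had no counts.

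Among the Groucho corepressors that HES and HEY proteins recruit, 3 of 7 passed the thresholds, 2 below the median mRNA and 1 above, beside the same 50.4% and 40.0%. TLE3 was at -2.05 and TLE4 at -0.63, while TLE5, a short family member without the WD repeats of the others, was at 1.12 with an RNA-seq level of 214 TPM. TLE5 was thus on the same side as HES6, and TLE3 on that of HES1.

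Of 34 genes of the Notch pathway, 20 passed the thresholds. Of these, 9 were called below the median mRNA and 8 above, beside 50.4% and 40.0% of all TUs tested. The median of the 20 was -0.04, against -0.24 over all TUs tested and 0 over mRNAs tested. The lowest were NRARP, a Notch target that dampens Notch signalling (-4.43, SE 0.15, at 8.85 TPM in RNA-seq and 296 TPM in PRO-seq), and NUMBL (-3.11). The highest were MIB1, the ubiquitin ligase of Notch ligands (2.34), and APH1A, a subunit of gamma-secretase (2.02). NOTCH1, the receptor with the highest RNA level of the 4, was at -1.50, close to HES1 and ID2. RBPJ missed the PRO-seq threshold with 9.54 TPM, beside 23.4 TPM in RNA-seq, and the ligand JAG2 likewise with 9.27 TPM, beside 14.0 TPM.

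Of 25 genes of the BMP pathway, 11 passed the thresholds. Of these, 8 were called below the median mRNA and 2 above, beside 50.4% and 40.0% of all TUs tested. The median of the 11 was -0.87, against -0.24 over all TUs tested and 0 over mRNAs tested. TOB1, a regulator of SMAD activity and of deadenylation, was lowest (-3.71), followed by SMAD6, an inhibitory SMAD (-3.10). SMAD7, the other inhibitory SMAD, was at -1.86. The signal carriers SMAD5 and SMAD4 were highest, at 0.67 and 0.53. The BMP ligands BMP2, BMP4, BMP6 and BMP7 were all at or under 0.563 TPM in RNA-seq.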

How the data were processed

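The authors deposited raw HTSeq counts per transcript for each library, without normalization. According to their methods, reads were trimmed with Cutadapt, aligned to GRCh38 with HISAT2 and counted on GENCODE transcripts, leaving out 500 bp at both ends of a TU for PRO-seq. The deposited RNA-seq counts are labelled as exon counts. The sources used here name no versions. Records naming no transcript (66.5% to 68.6% of an RNA-seq and 86.5% or 88.6% of a PRO-seq library) were left out.

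Transcripts were joined by identifier to GENCODE lifted to GRCh37 (37339 of 43172, or 86.5%, were found), which gave symbols and lengths. The 84 TUs of 1000 bp or less were left out. TPM used summed counts. Relative half-life was tested with edgeR 4.0.16 (R 4.3.3) on the 4 RNA-seq and 2 PRO-seq libraries, with TMM normalization, length offsets, centring on the median mRNA, Benjamini-Hochberg adjustment and a minimum of 10 TPM for PRO-seq and 1 TPM for RNA-seq. Shown as alternatives were DESeq2 1.42.0, other lengths, thresholds, scalings and centrings, a replicate block, and each library left out. The fit was tested on simulated data. Other steps used Python 3.11.15 with scipy 1.17.1.

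The members and lists were chosen with earlier results of these data known. Named were all 7 genes, all their relatives, the extremes among called genes of each other list (2 lowest and 2 highest), and the 2 mRNAs nearest to each member. Genes given beyond this rule (TCF4, TCF12, NOTCH1, RBPJ, JAG2, SMAD7, the BMP ligands and the factors without counts) were chosen after their values were seen. Of the K562 markers, 9 were tested, with HBG1 (3.79) and GATA1 (1.47) highest and ABL1 (-1.57) and EPOR (-1.38) lowest, and of the other markers EPCAM (4.01) and CD3D (2.69) were called. HBG1 shares reads with HBG2 and is uncertain. Intervals cover counting error only. The methods describe no removal of duplicate reads, so counted reads need not be separate molecules.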

Additional observations from a re-analysis of the deposited data

Results flagged for a closer look

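In the 4 RNA-seq libraries of ID1, replicate 4 (168 TPM) stood apart from the others (154 to 155 TPM): the gap was 0.931 of the whole range, above Dixon's 95% critical value for 4 samples. Of the 7 genes checked in this way, 1 stood apart, and chance alone marks about 1 in 20.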

How the results depend on the processing

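HES1, ID2 and HES6 kept their direction and their call in all tested alternatives, and their ranges stand in the report. ID3 lost its call with DESeq2 (-0.49), library totals (-0.49), close RNA-seq pairs (1 with 3, 2 with 4) summed (-0.49) and centring on all TUs (-0.25). With at least 1 summed count and no TPM threshold, which put 21100 TUs in the fit, values were 0.14 for ID3, 0.57 for ID1 (adjusted p = 0.0302), 0.56 for HES4 and 0.24 for HEY1. In that fit the median mRNA that sets 0 was taken over more genes. All 7 values rose by a like amount, with HES1 at -0.93 and HES6 at 1.79. With the same PRO-seq counts over the span less 500 bp, values were 0.36 for ID3, 1.55 for ID1 and 1.64 for HES4. With all TUs as reference they were 0.19 for ID1 and 0.18 for HES4. With MANE Select lengths and unchanged counts, chosen after the data were seen, they were 0.27 for ID1 and 0.17 for HES4.

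Replicate numbers 1 and 2 occur in both assays but share only a number: over 9962 TUs the differences between replicates 1 and 2 correlated at -0.0067 between assays. With a replicate block ID3 was at -0.51 (adjusted p = 0.0587) and HES4 at 0.014, and no other gene's call changed.

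Without each library in turn, values ran from -0.70 to -0.25 for ID3 and from -0.63 to 0.90 for HES4, whose value turned without RNA-seq replicate 4 (0.03) and without PRO-seq replicate 2 (0.90). ID3 lost its call without RNA-seq replicate 1, 2 or 3 and without PRO-seq replicate 2.

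Calls above the median mRNA rose without a TPM threshold to 2 members, 15 Notch, 6 BMP and 2 partner genes. They were 3 members with the span less 500 bp as PRO-seq length and 2 partners with all TUs as reference. Such calls ranged from 0 to 1 partners without each library. With thresholds of 20 and 2 TPM they fell to 5 Notch genes and 1 BMP gene, and 1 Groucho gene was called below, fewer genes being tested. The causes of the other changes were not tested. PRO-seq depth limits HES4 (4 counts), ID1 (31) and HEY1 (37).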
